A study of Mus musculus with 9 samples.

Results

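Hindlimb skeletal muscle of the mouse was compared between postnatal day 14 (P14) and postnatal day 2 (P2), the last and the first of 3 ages in the series. The 3 P14 arrays and the 3 P2 arrays were taken by their titles, 6 of the 9 arrays in all. The 3 arrays of postnatal day 7 (P7) entered the estimate of spread, the choice of probe sets, the background level and the steps and levels given in between. All samples carried the strain label mixed and no genotype or treatment label, and total RNA had been isolated with Trizol from the hindlimb muscles. Arrays of 1 age were labelled as biological replicates, but no label says whether a replicate was 1 animal or a pool, or gives its sex, so the p-values rest only on the differences among these samples, which may be technical. Of 41345 probe sets, 23521 were listed with 1 gene symbol, and each of the 22180 genes was read from its brightest probe set, taken over all 9 arrays. Levels are log2 intensities on the scale the authors deposited, a difference of 1 is a 2-fold difference, and higher or lower refers to P14 against P2.

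In the first postnatal weeks a mouse hindlimb muscle grows mainly by enlarging fibres that already exist. Its fibres exchange embryonic and neonatal forms of the contractile proteins for adult ones, build the membrane system that couples excitation to contraction, and fill with mitochondria and glycogen enzymes. Dividing cells become rarer over the same time, and a group of imprinted genes that promote fetal growth is known to be switched down in many tissues.

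The labelled tissue carried its defining markers at both ages. Skeletal alpha actin (Acta1) lay between 11.91 and 12.13 on all 6 arrays, and the muscle creatine kinase Ckm between 9.81 and 11.24. Smell and taste receptor genes, taken here as mostly silent in muscle, served as a measure of background. The 95th percentile of 1447 of them was 3.23, and 14421 of the 22180 genes (65.0%) had a mean above it at 1 or more ages. Where the mean of the dimmer age lay under that level the gene is called dim there and no fold is given. Replicate arrays were closer to each other at P14 (r 0.981 to 0.984 over genes, median SD of a gene 0.163) than at P2 (0.953 to 0.964, median SD 0.251).

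The P2 arrays differed among themselves. P2 replicate 1 was the lowest of the 3 for 14 adult fast sarcomere genes, with medians of -0.88, -0.45 and -0.41 on P2 replicates 1 to 3, each gene being set against its own mean over the 9 arrays. By these medians it was also the lowest for the respiratory, citrate cycle and glycolysis lists. It was not the lowest by median for glycogen, creatine or mitochondrial biogenesis. In the log2 of the members' added intensities, P2 replicate 1 was the lowest P2 array for those lists too. Among the P2 arrays, medians were lowest on replicate 2 for 38 mitosis genes (0.58, 0.17 and 0.87). They were highest on replicate 2 for 13 cartilage and bone markers (0.29, 1.51 and -0.42). For 12 neutrophil markers they were highest on replicate 1 (1.51, -0.37 and 0.72). Xist, which is transcribed from the inactive X chromosome, read 2.42, 2.10 and 8.80 on the P2 arrays and 7.97, 3.09 and 2.48 on the P14 arrays, so it was uneven within both ages. A gene named below with its own value as having risen or fallen kept that call when any 1 of the 9 arrays was left out, unless an array is named beside it. Counts over gene lists are those of the fit on all 9 arrays, and include members that lost the call in 1 or more of those fits. Each list count is to be read against the share of all genes, 6.63% called higher and 4.40% called lower.

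Between P2 and P14, 2447 of 22180 genes changed at an adjusted p under 0.05 (11.0%), 1470 higher (6.63%) and 977 lower (4.40%). The change was at least 2-fold for 908 genes (4.09%), of which 527 were higher (2.38%) and 381 lower (1.72%), and at least 4-fold for 47 higher and 72 lower genes. The median fold was 1.82 among the genes that were higher and 1.84 among those that were lower, and the median change of all genes was 0.01. After cyclic loess scaling the count was 2534 with 48.0% of the called genes higher, in place of 60.1%, so the balance of directions depends on the scaling. Of the 2447 genes, 1089 (44.5% of them and 4.91% of all genes) were called in every fit that left out 1 array, and the count was 1584 without P2 replicate 1, 1397 without P14 replicate 1, 1373 without P14 replicate 2 and 1520 without P14 replicate 3. In tissue RNA, fewer cells of a type and less RNA per cell cannot be told apart.

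Bright genes were called more often than dim ones. With genes ranked by mean level into 4 groups of 5545, 24.3% of the brightest group were called, 932 higher and 413 lower, against 13.2%, 5.03% and 1.61% in the groups below. In the dimmest group 16 genes were higher and 73 lower. The fitted step from P2 to P7 alone called 73 genes (0.329%) and the step from P7 to P14 538 genes (2.43%), both of which share arrays with the whole span.

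**Figure D1:**
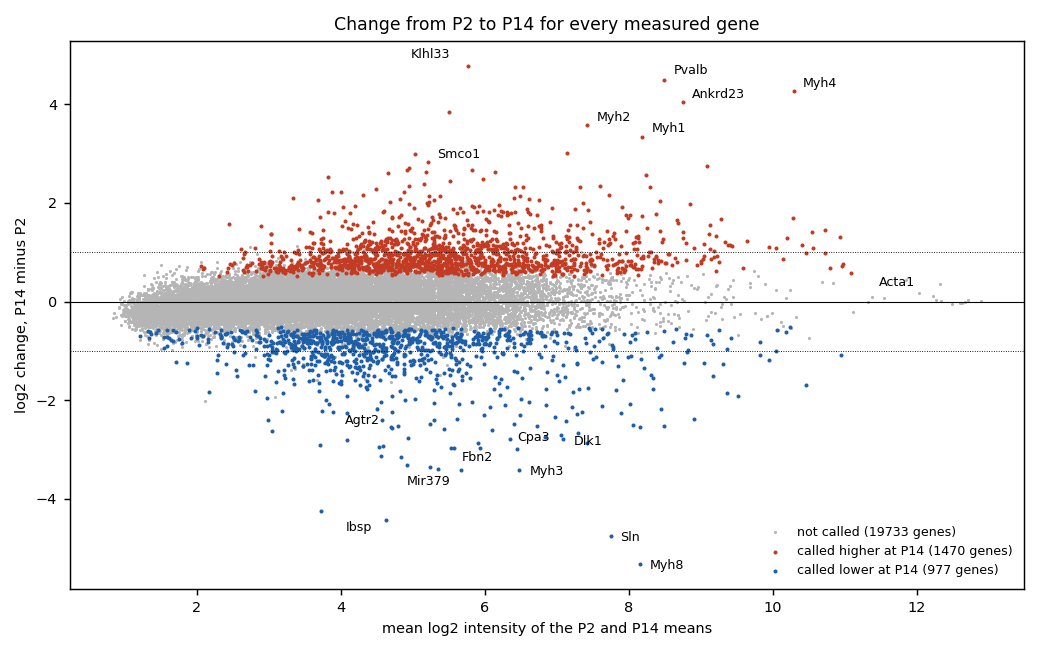
Change from P2 to P14 (log2, y axis) against the mean of the P2 and P14 levels (log2 intensity, x axis) for all 22180 genes, 1 point a gene, with the 1470 genes called higher and the 977 called lower coloured. The neonatal myosin Myh8 lies lowest at -5.32 and the kelch protein gene Klhl33 highest at 4.79, and called genes are sparse at the dim end.

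The largest fall of all 22180 genes was that of neonatal myosin heavy chain, Myh8, which read 10.88, 10.89 and 10.68 at P2 and 5.50, 5.56 and 5.44 at P14. All 3 P14 arrays lay more than 5 log2 units under all 3 P2 arrays. The difference was -5.32 (SE 0.16, adjusted p = 9.187e-11), a 39.9-fold fall, and most of it came after P7, when the mean was still 9.74.

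Embryonic myosin heavy chain, Myh3, read 8.48, 7.91 and 8.13 at P2 and 4.76, 4.31 and 5.22 at P14. It fell 10.6-fold (log2 -3.41, SE 0.32, adjusted p = 1.033e-05), with a P7 mean of 6.27 between the ends. The embryonic light chain Myl4 fell 3.95-fold (log2 -1.98) and the cardiac and fetal troponin T gene Tnnt2 3.34-fold (log2 -1.74). The cardiac alpha actin Actc1, the main actin of the embryonic fibre, went the other way: 9.39, 8.46 and 9.20 at P2 and 10.29, 10.49 and 9.98 at P14, a 2.35-fold rise (log2 1.23, SE 0.23, adjusted p = 0.0033). Of the 6 developmental sarcomere genes measured, 4 fell, 1 rose and 1 did not pass the test, and the list median was -1.86.

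The adult fast myosin of the strongest fibres, Myh4 (type 2B), read 5.33, 8.85 and 10.26 at P2 and 12.40, 12.45 and 12.42 at P14. The P2 arrays spread over almost 5 log2 units, whereas the P14 arrays were nearly level, and the groups did not overlap. Myh4 rose by 4.28 (SE 0.79, adjusted p = 0.0029), a 19.4-fold rise, by 2.87 (adjusted p = 8.137e-05) without P2 replicate 1, the lowest, and by 5.34 without P2 replicate 3, the highest. Its P7 mean was already 12.23.

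The other adult fast myosins rose too. Myh2 (type 2A) read 4.48, 5.66 and 6.74 at P2 and 9.06, 9.08 and 9.50 at P14, 12.03-fold higher (log2 3.59, SE 0.43, adjusted p = 9.675e-05). Myh1 (type 2X) read 5.19, 6.64 and 7.71 at P2 and 9.885, 9.680 and 10.004 at P14, 10.1-fold higher (log2 3.34, SE 0.42, adjusted p = 0.0001357). P2 replicate 1 was the lowest array for both, and without it the differences were 3.01 and 2.68. P2 replicate 3 was the highest for both, and without it Myh1 gave 3.94. Slow myosin, Myh7, read 5.67, 6.09 and 6.33 at P2 and 6.32, 5.91 and 7.30 at P14. Its groups overlapped and it did not pass the test (log2 0.48, adjusted p = 0.39). Skeletal myosins are close copies of each other, and the reach of 1 gene's probes to another was not tested.

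Among 14 adult fast sarcomere genes 11 rose (78.6%, against 6.63% of all genes higher), none fell, and the median was 0.87. In every fit with 1 array left out 8 of the 11 were called. In all 14 the P14 arrays lay above the P2 arrays, as they did for 16.2% of all genes. The fast myosin-binding protein gene Mybpc2 rose 6.71-fold (log2 2.75, SE 0.27), from a mean of 7.72 to 10.46. Alpha-actinin 3 (Actn3), the Z disc crosslinker of fast fibres, rose 3.24-fold (log2 1.70), and fast troponin T (Tnnt3) 1.69-fold (log2 0.75). Acta1, among the brightest genes on the arrays, was nearly level, at 11.94 ± 0.05 (SD, n = 3) and 12.12 ± 0.02 (SD, n = 3). Of 10 slow fibre genes only the ventricular and slow light chain Myl3 was called (log2 1.23), and that call was lost without P2 replicate 1 or 2 and without P14 replicate 1 or 3.

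**Figure D2:**
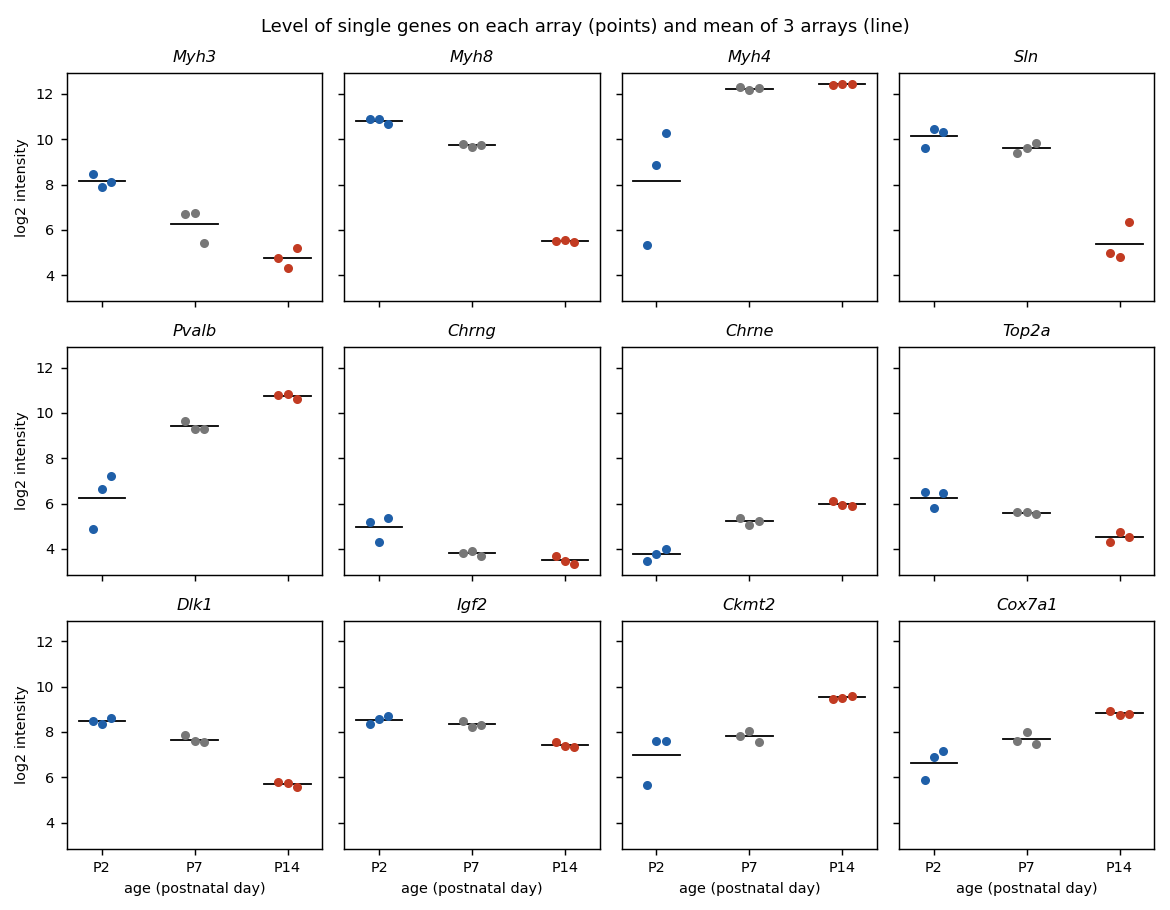
Level (log2 intensity, y axis) of 12 genes on each of the 9 arrays at P2, P7 and P14 (x axis), 1 point an array, with a line at the mean of each 3 arrays. Myh8, Myh3, Sln, Chrng, Top2a, Dlk1 and Igf2 end lower and Myh4, Pvalb, Chrne, Ckmt2 and Cox7a1 higher. The P2 points of Myh4 span 5.33 to 10.26.

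The promoters of Myh8 and Myh4 are shown because these 2 myosins had the largest fall of all genes and the largest rise among the myosins named here. Both are the 250 bases before the RefSeq start in build GRCm38.p6, 5′ to 3′ on the strand of the gene, with Myh8 at chr11:67276874-67277123 (plus strand) and Myh4 at chr11:67237562-67237811 (plus strand). Capitals mark TATAAA, the E-box CANNTG and the MEF2 box on either strand, and a TATAAA on the opposite strand overlaps each MEF2 box.
Myh8: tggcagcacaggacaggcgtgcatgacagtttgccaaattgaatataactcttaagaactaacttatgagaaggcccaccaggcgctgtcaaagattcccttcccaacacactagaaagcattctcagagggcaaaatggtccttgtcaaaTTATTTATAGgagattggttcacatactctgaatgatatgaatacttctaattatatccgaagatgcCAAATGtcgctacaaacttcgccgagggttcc
Myh4: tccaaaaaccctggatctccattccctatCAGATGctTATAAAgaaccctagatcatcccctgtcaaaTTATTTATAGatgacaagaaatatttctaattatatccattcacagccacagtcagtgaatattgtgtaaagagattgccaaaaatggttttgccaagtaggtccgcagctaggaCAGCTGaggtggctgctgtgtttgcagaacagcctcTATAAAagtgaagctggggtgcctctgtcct
The window of Myh8 held 1 TATAAA, 1 CANNTG and 1 MEF2 box, and that of Myh4 held 3, 2 and 1. The longest run of bases common to both was the 17 bases tgtcaaaTTATTTATAG, which contains the MEF2 box, starting 106 bases before the start of Myh8 and 189 bases before that of Myh4. Over 300-base windows that also take in the first 50 transcribed bases, the MEF2 box was found in 1.71% of 16918 genes with a RefSeq promoter, in 3.62% of genes called higher, in 1.58% of those called lower and in 2 of 9 adult fast sarcomere genes (22.2%). Among the adult fast myosins, Myh4 and Myh1 each held 1 MEF2 box and Myh2 held 0. The box reads TTATTTATAG in Myh4 and Myh1, and also in Myh8, which fell. TATAAA was found in 12.9% of all and in 5 of the 9 adult fast sarcomere genes (55.6%), and CANNTG in 68.9% of all.

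Proteins that organise the sarcomere were higher in part. Of 25 scaffold and Z disc genes 10 rose, none fell, and the median was 0.31. The actin-binding repeat protein gene Xirp2 rose 5.02-fold (log2 2.33), the pointed-end capping protein gene Tmod4 2.69-fold (log2 1.43), the Z disc protein gene Nexn 1.95-fold (log2 0.96) and the M-band gene Myom2 1.74-fold (log2 0.80). The count for the list was 6 without P2 replicate 1 and 6 without P14 replicate 2. Dystrophin (Dmd) read 7.81 ± 0.22 (SD, n = 3) and 8.10 ± 0.07 (SD, n = 3) and did not pass the test. Alpha-sarcoglycan (Sgca) rose 2.43-fold (log2 1.28) and epsilon-sarcoglycan (Sgce), the imprinted form found outside muscle as well, fell 2.10-fold (log2 -1.07). Of 14 genes of the dystrophin complex 1 rose and 3 fell, and only 2 were called without P14 replicate 1.

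Kelch and ankyrin repeat proteins of muscle held the largest rise of all 22180 genes. Klhl33, a kelch family gene, read 2.67, 3.88 and 3.56 at P2 and 7.99, 8.31 and 8.18 at P14. The P2 arrays were near the background level and every P14 array was more than 4 log2 units above the highest of them. It rose 27.6-fold (log2 4.79, SE 0.25, adjusted p = 1.177e-07), with a P7 mean of 5.94 about midway. Ankrd23, a stretch-responsive ankyrin repeat protein gene, read 5.93, 6.61 and 7.63 at P2 and 10.77, 10.80 and 10.76 at P14, 16.6-fold higher (log2 4.05, SE 0.31, adjusted p = 1.874e-06). Its relative Ankrd2 rose 4.43-fold (log2 2.15), and Klhl31, needed for sarcomere upkeep, 3.21-fold (log2 1.68). Of 12 such genes 7 rose and none fell, with a median of 0.81, and 4 were called without P2 replicate 1 or without P14 replicate 1.

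Genes that move calcium in the fibre were among the most changed. Sarcolipin (Sln), an inhibitor of the sarcoplasmic calcium pump, read 9.61, 10.47 and 10.30 at P2 and 4.98, 4.79 and 6.35 at P14. The groups were over 3 log2 units apart, and P14 replicate 3 was the highest of the P14 arrays. Sln fell 27.0-fold (log2 -4.76, SE 0.34, adjusted p = 1.109e-06), and its P7 mean of 9.61 was near the P2 level. Parvalbumin (Pvalb), the soluble calcium buffer of fast fibres, read 4.86, 6.65 and 7.21 at P2 and 10.77, 10.83 and 10.63 at P14. It rose 22.6-fold (log2 4.50, SE 0.41, adjusted p = 7.888e-06), and by 3.81 without P2 replicate 1, which was its lowest array.

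Several calcium genes came in pairs that moved apart. The release channel Ryr1 of adult muscle rose 2.04-fold (log2 1.03) and Ryr3, the second release channel of newborn muscle, fell 4.51-fold (log2 -2.17). The fast calcium-storage protein Casq1 rose 2.72-fold (log2 1.44), whereas Casq2, the form of slow and cardiac muscle, fell 2.92-fold (log2 -1.54). The fast pump Atp2a1 rose 2.49-fold (log2 1.32), while the slow pump Atp2a2 read 7.89 ± 0.36 (SD, n = 3) and 7.60 ± 0.47 (SD, n = 3), with overlapping groups. In all, 14 of 23 calcium genes rose and 3 fell, and the median was 0.90.

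Of 13 genes for sarcolemma channels and the sodium pump 10 rose and none fell, with a median of 1.12, and 8 of the 10 were called whichever array was left out. The chloride channel Clcn1, which sets the resting stability of the adult membrane, read 5.35, 5.35 and 5.34 at P2 and 7.10, 7.24 and 7.12 at P14. It rose 3.50-fold (log2 1.81, SE 0.15, adjusted p = 3.893e-06) with almost no spread at P2. The sodium pump's beta subunit Atp1b1 rose 3.42-fold (log2 1.78) and Atp1b2 2.39-fold (log2 1.26). The pump regulator Fxyd1 rose 3.41-fold (log2 1.77). Atp1b4, a related protein of perinatal muscle that sits in the nuclear membrane, was not in that list and fell 5.24-fold (log2 -2.39), from 10.09 to 7.70.

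At the neuromuscular junction the subunits of the acetylcholine receptor exchanged. The fetal gamma subunit Chrng read 5.18, 4.30 and 5.36 at P2 and 3.69, 3.48 and 3.31 at P14, and fell 2.74-fold (log2 -1.45, SE 0.24, adjusted p = 0.0013). The adult epsilon subunit Chrne read 3.48, 3.79 and 3.996 at P2 and 6.12, 5.94 and 5.90 at P14, and rose 4.69-fold (log2 2.23, SE 0.18, adjusted p = 2.919e-06). The adhesion molecule Ncam1, which coats immature and denervated fibres, fell 2.92-fold (log2 -1.55), and Dok7, the activator of the MuSK receptor kinase, rose 2.01-fold (log2 1.01). These were the only 4 of 16 junction genes called, and the list median was -0.12, or 0.03 without P2 replicate 3. Lynx1, a modulator of acetylcholine receptors outside that list, rose 8.06-fold (log2 3.01, SE 0.59), by 1.97 without P2 replicate 1 and by 3.77 without P2 replicate 3. It read 3.55, 6.18 and 7.16 on the P2 arrays.

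The exchange of early or widely used forms for adult or muscle forms was set out over 25 pairs of genes with both members measured. The adult or muscle member was higher in 20 pairs and not called in 5, and it was lower in none. The early or widely used member was lower in 9 pairs, higher in 1 (Actc1) and not called in 15. In 7 pairs both moved, the early form down and the adult form up: Myh8 and Myh4, Myl4 and Myl1, Tnnt2 and Tnnt3, Chrng and Chrne, Ryr3 and Ryr1, Casq2 and Casq1, and the translation elongation factors Eef1a1 and Eef1a2. The call of Myl1 (log2 0.92) was lost without P14 replicate 2. Members of a pair can share sequence, so that the fall of 1 form can be read low by the other's probes, which was not tested.

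The elongation factor pair has no link to contraction. Eef1a1, used in most cells, fell 2.11-fold (log2 -1.08), from 11.48 to 10.40, and Eef1a2, of muscle and neurons, rose 4.14-fold (log2 2.05), from 7.40 to 9.45. Rpl3l, the muscle form of a ribosomal protein, read 4.41, 6.20 and 6.13 at P2 and 7.74, 7.59 and 7.62 at P14, 4.21-fold higher (log2 2.07, SE 0.35), and 1.49 higher in log2 without P2 replicate 1. Its general form Rpl3 did not pass the test (log2 -0.48). In 11 of 13 energy pairs the adult or muscle form rose while the early or widely used form was not called. In the other 2, Cox4i2 with Cox4i1 and Fabp5 with Fabp3, neither member was called. Among the 11 were Cox6a2 (log2 1.09) beside Cox6a1 (-0.52), Cox7a1 (2.17) beside Cox7a2 (0.48), Cox8b (1.34) beside Cox8a (-0.11), Ckm (0.98) beside Ckb (-0.14), and Pgam2 (1.18) beside Pgam1 (-0.32). The call of Slc2a4 (log2 0.85), also among the 11, was lost without P2 replicate 1 or any 1 of the P14 arrays.

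**Figure D3:**
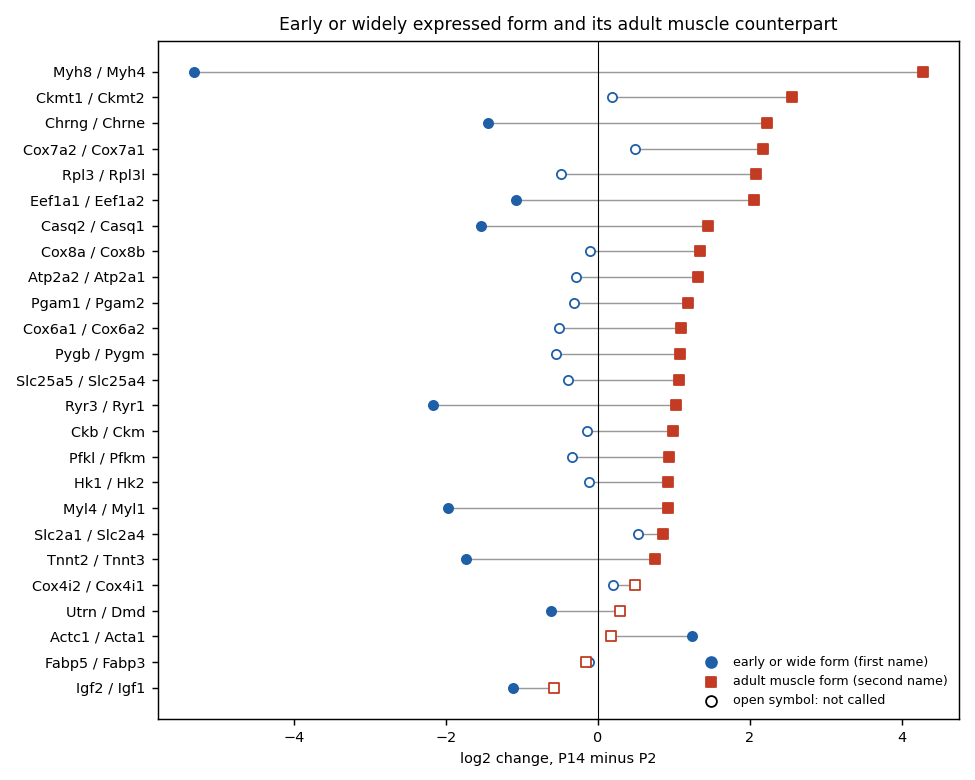
Change from P2 to P14 (log2, x axis) of the early or widely used form and of the adult or muscle form in 25 gene pairs (y axis), with filled points for called genes. The adult form lies to the right of the early form in 23 pairs, the exceptions being Actc1 with Acta1 and Fabp5 with Fabp3.

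Many mitochondrial energy genes rose. Of 22 genes of the citrate cycle and pyruvate dehydrogenase 20 rose and 1 fell, with a median of 0.82, and 14 of these 21 were called whichever array was left out. Of 33 respiratory complex I genes 26 rose and none fell (median 0.84), and of 38 genes of complexes III to V 20 rose and none fell (median 0.66). Without P14 replicate 1 the counts for the 2 respiratory lists were 17 and 13, and without P14 replicate 2 complexes III to V also gave 13. After cyclic loess the medians of these 3 lists were 0.62, 0.71 and 0.55.

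Cox7a1, the heart and muscle form of a cytochrome oxidase subunit, was the most changed respiratory gene. It read 5.89, 6.90 and 7.14 at P2 and 8.93, 8.74 and 8.77 at P14, a 4.50-fold rise (log2 2.17, SE 0.27, adjusted p = 0.0001181). P2 replicate 1 was its lowest array by 1 log2 unit. The complex I subunit genes Ndufb8 (log2 1.29), Ndufc1 (1.16), Ndufa12 (1.21) and Ndufs1 (1.01) rose by similar amounts, as did the complex III core gene Uqcrc1 (1.21) and the oxidase gene Cox5a (1.30).

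Idh2, the NADP-dependent mitochondrial isocitrate dehydrogenase, was the only citrate cycle gene that fell. It read 8.11, 8.56 and 8.06 at P2 and 7.05, 6.74 and 7.25 at P14, 2.34-fold lower (log2 -1.23, SE 0.19, adjusted p = 0.0007615), with no overlap. Malate dehydrogenase Mdh2 moved the other way with little spread, from 8.37 ± 0.01 (SD, n = 3) to 9.21 ± 0.04 (SD, n = 3). The succinate ligase subunit Sucla2 rose 2.13-fold (log2 1.09).

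The mitochondrial ribosome followed in smaller steps: 21 of 70 genes rose, none fell, and the median was 0.50. In 47 of the 70 all P14 arrays lay above all P2 arrays, as they did for 16.2% of all genes. The number that rose was 11 without P2 replicate 1, 10 without P14 replicate 1, 8 without P14 replicate 2 and 13 without P14 replicate 3, and 32 rose with dim genes removed before the fit. Mrpl34 rose 2.12-fold (log2 1.09). The cytosolic ribosome did not share the direction: of 57 genes 1 rose (Rpl34, log2 1.09) and 10 fell, with a median of -0.21. The number called was 5 without P14 replicate 1 or 3, 6 without P14 replicate 2, 19 after cyclic loess, and 7 with the mean of a gene's probe sets. Ribosomal protein genes have many processed copies in the genome, so that their probes are uncertain.

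Among regulators of mitochondria the coactivator Ppargc1a rose 2.17-fold (log2 1.12) and Perm1, a muscle factor acting downstream of it, rose 3.298-fold (log2 1.72). Of 15 genes of biogenesis control 4 rose and 1 fell, with 2 or 3 called when an array other than P2 replicate 2 or 3 was left out. The calcium-regulated carrier Slc25a25 read 3.67, 3.50 and 3.57 at P2 and 6.38, 6.32 and 6.06 at P14, 6.38-fold higher (log2 2.67, SE 0.18, adjusted p = 1.062e-06). Its P7 mean was 3.72, so the rise came in the second week. Of 46 Slc25 carrier genes 9 rose and 1 fell, the calcium-dependent carrier gene Slc25a24 (log2 -1.58).

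Creatine kinase of muscle mitochondria, Ckmt2, read 5.66, 7.61 and 7.62 at P2 and 9.46, 9.50 and 9.59 at P14. It rose 5.89-fold (log2 2.56, SE 0.38, adjusted p = 0.0006236), and by 1.91 without P2 replicate 1. Gatm, the first enzyme of creatine synthesis, fell in contrast, from 7.64 to 5.34 (log2 -2.30, 4.94-fold). AMP deaminase Ampd1 rose 2.59-fold (log2 1.37). Of 12 genes of this group 6 rose and 1 fell.

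Many genes of glycogen metabolism and glycolysis rose as well. The muscle alpha subunit of phosphorylase kinase, Phka1, read 5.72, 6.60 and 6.19 at P2 and 8.55, 8.59 and 8.31 at P14, 4.97-fold higher (log2 2.31, SE 0.21, adjusted p = 6.908e-06), from a P7 mean of 6.35. The catalytic subunit Phkg1 rose 5.07-fold (log2 2.34), the beta subunit Phkb 2.51-fold (log2 1.32), the branching enzyme Gbe1 2.74-fold (log2 1.45) and muscle phosphorylase Pygm 2.11-fold (log2 1.08). Of 17 glycogen genes 10 rose and 1 fell (median 0.76), 8 of them called whichever array was left out. Of 17 glycolysis genes 9 rose and 1 fell (median 0.68), among them Pgk1 (log2 1.22), Pgam2 (1.18) and Pfkm (0.94), and 6 were called without P14 replicate 1 or without P14 replicate 2.

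Genes of fat use were higher in part. Of 18 fatty acid oxidation genes 5 rose and none fell (median 0.34), with 2 or 3 called without P2 replicate 1 or any 1 of the P14 arrays. After cyclic loess 2 were higher and 1 lower (median 0.17). The enoyl-CoA isomerase Eci1 rose 2.05-fold (log2 1.04) and the carnitine carrier Slc25a20 2.004-fold (log2 1.003). The uncoupling protein Ucp3 read 4.80, 5.81 and 5.62 at P2 and 7.52, 7.68 and 7.48 at P14 and rose 4.42-fold (log2 2.15, SE 0.23). The fatty acid binding protein of muscle, Fabp3, read 7.04 ± 0.25 (SD, n = 3) and 6.88 ± 0.17 (SD, n = 3), with overlapping groups. Of 17 genes of fatty acid uptake and fuel choice 5 rose and 1 fell, and 3 were called without any 1 of the P14 arrays.

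**Figure D4:**
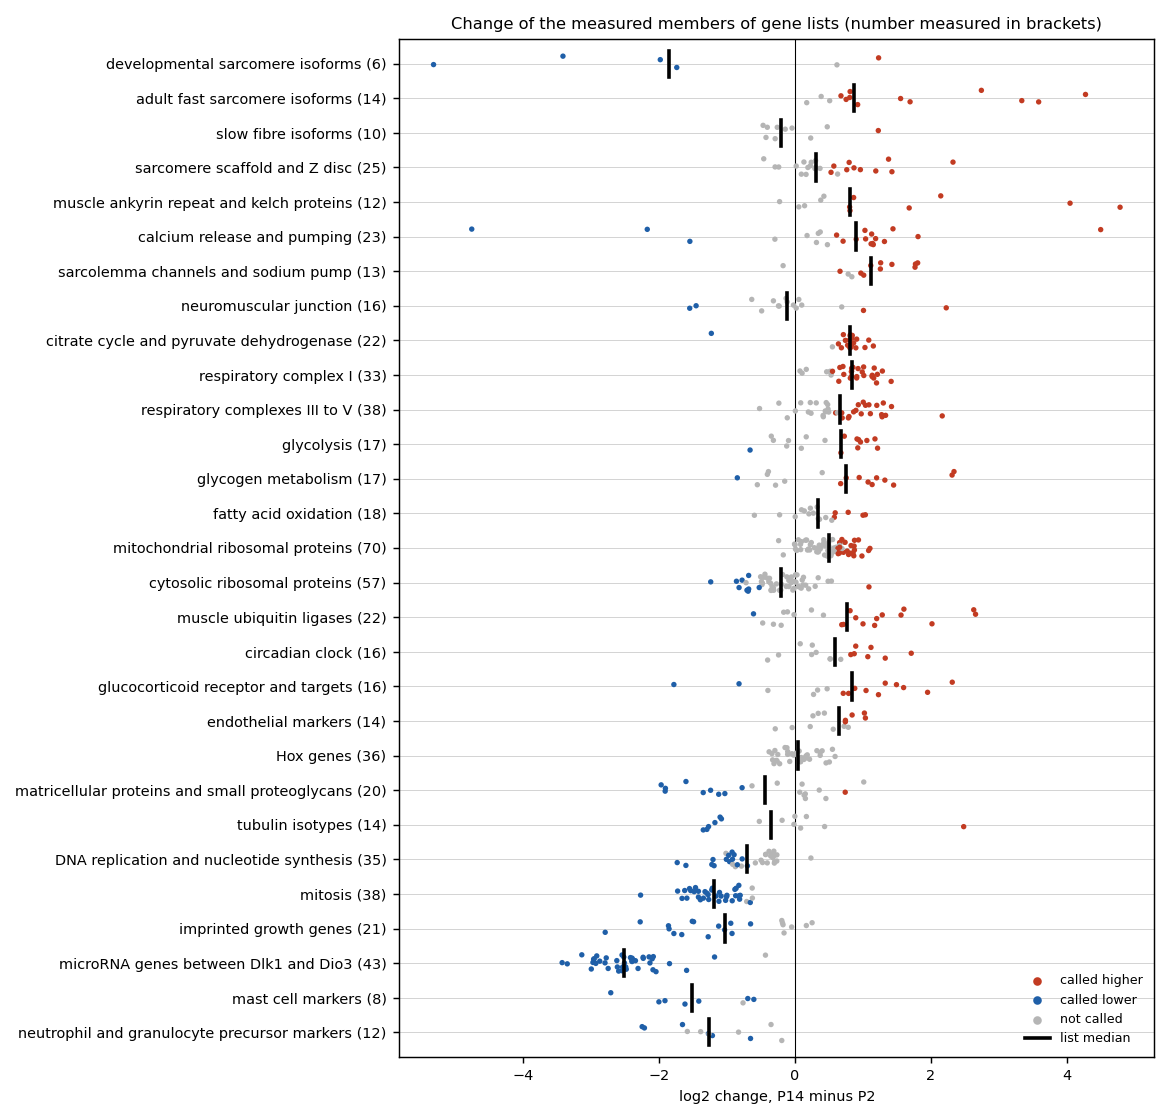
Change from P2 to P14 (log2, x axis) of the members of 29 gene lists (y axis), 1 point a gene, coloured by whether it was called higher, lower or not, with a bar at the list median. The medians of energy, calcium and channel lists lie right of 0, and those of mitosis, imprinted and Dlk1 to Dio3 microRNA lists lie left of it, the last at a median of -2.51.

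Genes for protein breakdown in muscle were higher in part. Of 22 muscle ubiquitin ligase genes 13 rose and 1 fell, with a median of 0.76, and 10 of the 14 were called whichever array was left out. Fbxo40, a muscle F-box gene whose protein targets the insulin receptor substrate, rose 6.32-fold (log2 2.66), from a P7 mean of 5.08 to 7.16 at P14. The substrate receptor genes Asb14 (log2 2.63) and Asb16 (2.02) and the atrophy ligase gene Trim63 (1.61) rose as well. Of 38 proteasome subunits 3 rose (7.89%, near the 6.63% of all genes higher) and none fell. The count was 1 without P14 replicate 1, 0 without P14 replicate 2 and 7 with an eBayes trend. Their median was 0.24, against 0.01 for all genes. In 15 of the 38 all P14 arrays lay above all P2 arrays, against 16.2% of all genes. In 0 of them all P14 arrays lay below, against 12.6%. Of 20 autophagy and Foxo genes 4 rose (median 0.33), a count of 1 without P2 replicate 1 or P14 replicate 1, 2 without P2 replicate 3 or after cyclic loess, and 0 without P14 replicate 2 or 3.

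By its median, the list of the glucocorticoid receptor and its targets rose mostly after P7. The kinase gene Sgk1, a glucocorticoid target, read 4.27, 4.15 and 4.27 at P2 and 6.31, 6.10 and 6.14 at P14, 3.87-fold higher (log2 1.95, SE 0.16, adjusted p = 3.163e-06). Klf9 rose 4.98-fold (log2 2.32), the phosphatase gene Dusp1 2.82-fold (log2 1.496) and the clock gene Per1 2.51-fold (log2 1.33). Of 16 genes of the glucocorticoid receptor and its targets 10 rose and 2 fell (median 0.84), and 7 were called without P14 replicate 3. The list median was 0.06 for the step from P2 to P7 and 0.78 for the step from P7 to P14, which share arrays with the whole span. The P2 arrays were uneven: the added intensities of the list's members, in log2, were 9.73, 10.78 and 9.73 on P2 replicates 1 to 3. At P14 they were 10.81 to 10.92.

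The thyroid hormone receptor gene Thrb read 2.52, 3.12 and 3.38 at P2, which is dim, and 5.04, 4.67 and 4.70 at P14 (log2 1.80, adjusted p = 9.147e-05). Thra did not pass the test (log2 -0.14), and the hormone transporter gene Slc16a10 rose 1.92-fold (log2 0.94). Of 16 clock genes 7 rose and none fell (median 0.60), among them Bhlhe41 (log2 1.71), Per1 as given above, Nr1d1 (1.12) and Bhlhe40 (1.07). The hour of sampling is not labelled. The orphan receptor gene Nr4a1, an immediate early gene that responds to adrenergic input and contraction, was level between P2 (5.72) and P7 (5.79) and rose to 7.79 at P14 (log2 2.07 against P2, 4.20-fold). Of 17 immediate early genes 6 rose, and 3 were called without P14 replicate 1 or 3.

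Called members made up 23.5% of the chaperone list and 11.1% of the aminoacyl-tRNA synthetase list, against 11.0% of all genes. Of 17 chaperone genes 4 rose, among them the small heat shock protein gene Hspb6 (log2 1.29) and the muscle methyltransferase gene Smyd1 (1.12), and the list median was 0.12, or -0.04 after cyclic loess. Of 18 aminoacyl-tRNA synthetase genes 2 rose (median 0.41). The count was 4 without P2 replicate 3, 1 without P14 replicate 1 and 0 without P14 replicate 2 or 3 or after cyclic loess. In 10 of the 18 all P14 arrays lay above all P2 arrays, against 16.2% of all genes. Of 16 interferon-stimulated genes 0 were called by limma and 3 had an unadjusted p under 0.05, with at most 1 called in any alternative fit. Of the 16, 12 had a mean above the background level at 1 or more ages.

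Calls among regulators of the muscle lineage differed by list. They took in 27.8% of myogenic and satellite cell regulators, 46.2% of fusion genes and 35.3% of fibre type regulators. For Notch genes the share was 6.25%, and for all genes 11.0%. Of 18 myogenic and satellite cell regulators 3 rose and 2 fell (median 0.16), and 2 or 3 were called without P2 replicate 1 or 3, P7 replicate 1 or any 1 of the P14 arrays. After cyclic loess 1 was higher and 2 lower, with a median near 0. The myoblast factor Myf5 read 4.99, 5.34 and 5.42 at P2 and 3.79, 4.40 and 4.20 at P14, a 2.17-fold fall (log2 -1.12, SE 0.22). Eya1, a coactivator of fast fibre genes, rose 2.22-fold (log2 1.15). Of 13 fusion genes 5 fell and 1 rose (median -0.61), a count of 2 without P2 replicate 1 or P14 replicate 1 or 3 and of 1 without P14 replicate 2. Of 16 Notch genes only Notch2 was called (log2 -0.83), and not without P14 replicate 2, while 2 were called without P2 replicate 3. Myod1 (log2 0.57), Myog (-0.24) and the satellite cell factor Pax7 (-0.39) did not pass the test, and for each the groups overlapped. Of 36 Hox genes 0 were called by limma (median 0.04), 4 had an unadjusted p under 0.05, and at most 1 was called in any alternative fit. Only 22 of the 36 had a mean above the background level at 1 or more ages. The large Maf factor gene Maf rose 2.82-fold (log2 1.49), and of 17 fibre type regulators 5 rose and 1 fell, with 3 called without P2 replicate 1 or P14 replicate 2.

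Genes of cell division fell together. Of 38 mitosis genes 35 fell (92.1%, against 4.40% of all genes lower), none rose, and the median was -1.19. All 38 had every P14 array below every P2 array, as had 12.6% of all genes, and 28 were called whichever array was left out. P2 replicate 2 had the lowest level of the P2 arrays, and without it 38 of 38 were lower, with a median of -1.32. After cyclic loess 37 were lower.

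Topoisomerase 2 alpha (Top2a), which untangles replicated chromosomes, read 6.51, 5.79 and 6.45 at P2 and 4.32, 4.75 and 4.51 at P14. It fell 3.31-fold (log2 -1.73, SE 0.20, adjusted p = 8.586e-05). Mki67, the widely used proliferation marker, read 7.26, 6.49 and 7.33 at P2 and 5.31, 5.47 and 5.32 at P14, and fell 3.16-fold (log2 -1.66, SE 0.21). For both genes P2 replicate 2 was the lowest P2 array, and the groups did not overlap. The kinetochore gene Ndc80 fell 3.01-fold (log2 -1.59) and the kinetochore motor gene Cenpe 2.79-fold (log2 -1.48).

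DNA replication genes were lower in part. Of 35, 14 fell and none rose (median -0.70), and the count was 6 without P2 replicate 1, 7 without P2 replicate 3, 8 without P14 replicate 1 and 6 without P14 replicate 3. The helicase gene Mcm6 fell 2.28-fold (log2 -1.19), the thymidylate synthase gene Tyms 1.96-fold (log2 -0.97) and the cell cycle repressor gene E2f8 3.32-fold (log2 -1.73). Of 25 clustered histone genes only 14 had a mean above the background level at 1 or more ages. Among the 25, 10 fell and 1 rose, and 7 were called without P14 replicate 2. H2ac10, the one that fell most, read 8.31 at P2 and 6.56 at P14 (log2 -1.74), but these genes are near-identical copies and their probes may share signal. Gadd45g, a stress-induced growth regulator, rose 3.09-fold (log2 1.63), all of it after P7, when the mean was 3.91 against 4.31 at P2. Of 9 cell cycle inhibitor and Gadd45 genes 2 rose and 1 fell, with 1 called without P2 replicate 1 or P14 replicate 3.

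Promoters of 4 mitosis genes are shown because a pair of short motifs recurred across that list. They are the 250 bases before the RefSeq start in build GRCm38.p6, 5′ to 3′ on the strand of the gene, with Top2a at chr11:99024190-99024439 (minus strand), Mki67 at chr7:135716380-135716629 (minus strand), Ccnb2 at chr9:70421555-70421804 (minus strand) and Cdk1 at chr10:69352913-69353162 (minus strand). Capitals mark CCAAT, whose other strand reads ATTGG, and the motif TTTGAA, whose other strand reads TTCAAA. Ccnb2, a mitotic cyclin (log2 -1.27), and Cdk1, its kinase (log2 -0.9995), were chosen for display after their values were seen.
Top2a: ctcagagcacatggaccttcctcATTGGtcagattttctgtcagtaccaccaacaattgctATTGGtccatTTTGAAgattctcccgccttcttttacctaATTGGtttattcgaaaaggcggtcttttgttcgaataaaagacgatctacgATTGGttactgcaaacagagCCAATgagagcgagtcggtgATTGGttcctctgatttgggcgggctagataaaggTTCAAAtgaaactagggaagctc
Mki67: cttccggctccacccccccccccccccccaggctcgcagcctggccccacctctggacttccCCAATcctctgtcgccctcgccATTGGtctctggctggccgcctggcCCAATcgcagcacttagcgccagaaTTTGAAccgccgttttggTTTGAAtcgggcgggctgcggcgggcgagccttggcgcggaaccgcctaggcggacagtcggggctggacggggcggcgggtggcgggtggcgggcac
Ccnb2: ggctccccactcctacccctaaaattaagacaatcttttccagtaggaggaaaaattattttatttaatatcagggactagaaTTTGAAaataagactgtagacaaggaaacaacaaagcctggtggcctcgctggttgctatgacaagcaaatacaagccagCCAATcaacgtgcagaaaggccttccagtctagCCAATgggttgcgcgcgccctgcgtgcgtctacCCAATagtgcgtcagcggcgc
Cdk1: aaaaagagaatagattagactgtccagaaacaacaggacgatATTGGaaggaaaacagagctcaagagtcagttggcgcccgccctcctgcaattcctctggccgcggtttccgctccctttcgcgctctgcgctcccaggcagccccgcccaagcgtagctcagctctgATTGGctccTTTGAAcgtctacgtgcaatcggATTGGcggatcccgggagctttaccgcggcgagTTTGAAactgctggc
These windows held 6, 3, 3 and 3 CCAAT and 2, 2, 1 and 2 TTTGAA motifs. Over 300-base windows on both strands, TTTGAA was found in 27 of 34 mitosis genes with a promoter (79.4%), in 15.8% of all 16918 genes, in 16.7% of genes called lower and in 11.7% of genes called higher. CCAAT was found in 27 of the 34 (79.4%) and in 38.4% of all. Both were found in 24 of the 34 (70.6%), in 6.40% of all and in 9.63% of genes called lower. Among 30 replication genes with a promoter, CCAAT was found in 60.0% and TTTGAA in 23.3%. A match describes the letters of the window and shows no binding.

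Imprinted genes, of which only the copy from 1 parent is used, were lower as a group. Of 21 imprinted growth genes 14 fell and none rose, with a median of -1.03. Plagl1, a zinc finger factor of an imprinted network, read 8.41, 8.37 and 8.45 at P2 and 6.06, 6.20 and 6.14 at P14, 4.84-fold lower (log2 -2.28, SE 0.16, adjusted p = 1.109e-06). The fetal growth factor Igf2 read 8.35, 8.57 and 8.72 at P2 and 7.54, 7.39 and 7.34 at P14, 2.18-fold lower (log2 -1.12, SE 0.17), and its clearance receptor Igf2r fell 1.92-fold (log2 -0.94). Both genes were tight within each age, with groups that did not overlap.

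The receptor gene Igf1r fell 1.97-fold (log2 -0.98), and Igf1 itself read 6.79 at P2 and 6.20 at P14 and did not pass the test (log2 -0.59, adjusted p = 0.052). Of 15 genes of the insulin-like growth factor axis 3 rose and 4 fell, and 4 were called without P2 replicate 1 or P14 replicate 2 or 3. Igf2bp3, an RNA-binding protein of fetal tissues, fell 3.41-fold (log2 -1.77). The growth inhibitor Mstn did not pass the test (log2 0.20), and of 13 genes of the myostatin and activin axis 1 rose and 1 fell, a count of 0 without P14 replicate 1, 4 without P2 replicate 2, and 1 without P2 replicate 1, P7 replicate 1 or P14 replicate 2 or 3.

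One stretch of chromosome 12 held a large part of the strongest falls. From Dlk1 to Dio3, the imprinted Dlk1 to Dio3 domain, 54 genes were measured, of which 50 fell, none rose and 4 were not called. Dlk1, a surface protein of growing muscle and fat precursors, read 8.47, 8.34 and 8.63 at P2 and 5.77, 5.74 and 5.56 at P14, a 6.92-fold fall (log2 -2.79, SE 0.17, adjusted p = 3.329e-07). The long noncoding RNAs of the other parental copy fell too: Meg3 3.61-fold (log2 -1.85) and Rian 3.63-fold (log2 -1.86). Of 20 measured neighbours, 10 on each side, only Cinp, named after its value was seen, was called, and it was higher (log2 0.60). It was called without P2 replicate 3 or P7 replicate 2 or 3 but in none of the other 6 fits with 1 array left out.

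The 4 genes of the stretch that were not called, named after their values were seen, were Mir299a (log2 -0.43), 3110009F21Rik (-0.03), Dio3os (0.01) and Dio3 (0.25). Dio3, which inactivates thyroid hormone, read 1.83 and 2.08 in the means of P2 and P14, under the background level at both ages. The genes that fell therefore formed 2 unbroken runs of 21 and 29 measured genes with only Mir299a between them, which were the longest runs of neighbours changed in 1 direction on any chromosome. The next were 5 genes higher on chromosome 10, the run of 2310065F04Rik, Myh2, Myh1 and Myh4 on chromosome 11, and the run of Casd1, Sgce, Peg10 and Ppp1r9a, lower, on chromosome 6, also named after their values were seen. Casd1 was called only without P2 replicate 2 or P7 replicate 2 among the fits with 1 array left out.

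**Figure D5:**
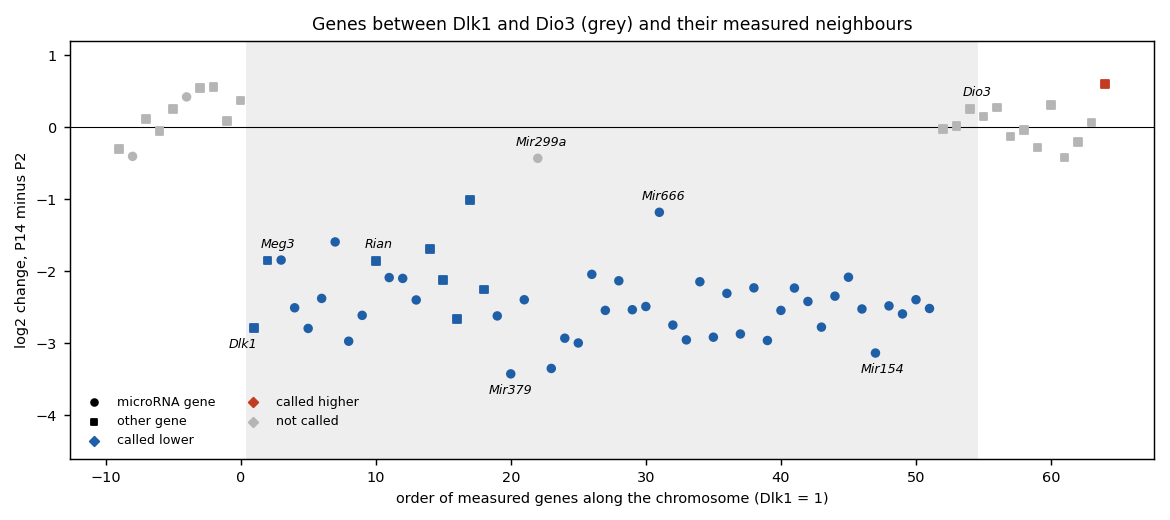
Change from P2 to P14 (log2, y axis) of measured genes in their order along chromosome 12 (x axis), with Dlk1 as 1 and Dio3 as 54, the domain shaded and 10 neighbours on each side. The 50 called genes inside lie below 0, from Mir379 at -3.42, and the 20 neighbours lie between -0.42 and 0.60.

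MicroRNA genes made up most of that stretch. Of 43 there, 42 fell and the median was -2.51, and in all 43 every P14 array lay below every P2 array, as in 12.6% of all genes. Of 440 microRNA genes elsewhere, 26 fell and 9 rose (median -0.15). A mean above the background level at 1 or more ages was found for 42 of the 43 and 144 of the 440. Array probes for a microRNA gene read the precursor or the longer transcript around it and not the mature microRNA, and genes that lie on 1 transcript share its signal. The median change of the 43 was -0.19 from P2 to P7 and -2.29 from P7 to P14.

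Mature sequences are shown for the 4 largest falls of the stretch (Mir379, Mir380, Mir154 and Mir323), for 2 further members that share a seed with Mir379, and for muscle microRNAs that were lower. They are from RefSeq in build GRCm38.p6, 5′ to 3′, on the plus strand, with the seed (bases 2 to 8) in capitals. Their places are chr12:109709065-109709085 for miR-379-5p, chr12:109709102-109709123 for miR-379-3p, chr12:109715716-109715735 for miR-1193-5p, chr12:109710225-109710246 for miR-411-3p, chr12:109711842-109711863 for miR-380-3p, chr12:109738438-109738459 for miR-154-5p, chr12:109712558-109712578 for miR-323-3p, chr1:20682834-20682855 for miR-133b-3p and chr1:20679055-20679076 for miR-206-3p.
miR-379-5p: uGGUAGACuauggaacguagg
miR-1193-5p: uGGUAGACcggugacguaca
miR-379-3p: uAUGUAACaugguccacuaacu
miR-411-3p: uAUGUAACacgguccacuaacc
miR-380-3p: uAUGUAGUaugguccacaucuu
miR-154-5p: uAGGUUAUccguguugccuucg
miR-323-3p: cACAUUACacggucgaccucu
miR-133b-3p: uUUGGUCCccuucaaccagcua
miR-206-3p: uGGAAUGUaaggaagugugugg
The first pair shares the seed GGUAGAC and the second the seed AUGUAAC. All 43 genes had a RefSeq mature sequence, 81 in all, with 73 distinct seeds, of which 8 were shared by 2 genes, 12 genes in total.

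Mir379 read 7.48, 7.52 and 7.12 at P2 and 4.30, 3.78 and 3.77 at P14, and fell 10.7-fold (log2 -3.42, SE 0.19, adjusted p = 1.639e-07). Its P7 mean was 7.02. Mir380 fell 10.2-fold (log2 -3.35). Mir323 fell 7.98-fold (log2 -2.996), from a P7 mean of 7.93 that matched its P2 mean of 7.94, and Mir154 (log2 -3.14) was dim at P14. Mir1193, which shares a seed with Mir379, fell 5.62-fold (log2 -2.49), and Mir411 (log2 -2.40) was dim at P14.

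Outside the domain, Mir133b, a muscle microRNA gene on chromosome 1, read 7.09, 7.44 and 6.61 at P2 and 3.37, 3.64 and 3.95 at P14, 10.5-fold lower (log2 -3.39, SE 0.22, adjusted p = 8.467e-07). Mir206, its neighbour, was dim at both ages (log2 -1.83), and Mir1a-1 fell 2.72-fold (log2 -1.44), wholly after P7. Of 7 muscle microRNA genes 3 fell and none rose. Mir1904, which rose, read 3.63 at P2 and 5.13 at P14 (log2 1.503). Nctc1, a noncoding RNA gene close to H19 and Igf2 that muscle transcribes, went against its imprinted neighbour: it read 3.23, 3.84 and 3.67 at P2 and 7.46, 7.29 and 7.51 at P14, 14.3-fold higher (log2 3.84, SE 0.19, adjusted p = 7.39e-08).

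Extracellular matrix genes of growing connective tissue were lower in part. Fibrillin 2 (Fbn2), the fetal microfibril protein, read 7.21, 6.83 and 7.01 at P2 and 3.96, 4.16 and 4.01 at P14, and fell 7.85-fold (log2 -2.97, SE 0.17, adjusted p = 2.602e-07). It was 1 of 2 called among 17 elastic fibre genes and kept its call with any 1 array left out, while elastin (Eln, log2 -1.06) lost its call without P14 replicate 1. Without P2 replicate 2, 4 of the 17 were called, and after cyclic loess, or with dim genes removed before the fit, 6 were. Periostin (Postn), a matricellular protein, read 10.52, 10.41 and 10.46 at P2 and 8.54, 8.52 and 8.61 at P14, 3.75-fold lower (log2 -1.91, SE 0.16). The proteoglycan gene Vcan (log2 -1.97) and the matricellular genes Thbs2 (-1.60) and Aspn (-1.35) fell too, and of 20 such genes 9 fell and 1 rose, 7 of them called whichever array was left out.

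The main fibril collagens did not pass the test, Col1a1 with log2 -0.73 and Col3a1 with -0.57. Of 44 collagen chains 7 fell and 2 rose (median -0.32), among them Col12a1 (log2 -1.77), Col14a1 (-1.26) and Col5a2 (-1.11). Of the 44, 5 were called without P14 replicate 1 or 2, and after cyclic loess 13 were lower and 2 higher. Of 13 laminin and basement membrane genes 1 was called, a count of 0 without P2 replicate 1 or 3 or any 1 of the P14 arrays and of 2 after cyclic loess. Of 25 integrin subunits 3 rose and 4 fell, with 3 called without P14 replicate 1 or 2. Fibroblast markers had 2 of 12 lower and 1 higher (median -0.21), or 1 called without P7 replicate 2 or 3 or any 1 of the P14 arrays. After cyclic loess 5 were lower and 0 higher (median -0.40), and without P2 replicate 3 the median was 0.01. Their summed level, the log2 of the members' added intensities, was 12.33 to 12.89 at P2 and 12.09 to 12.32 at P14. Their part in the fall of the matrix genes was not tested.

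The tubulins divided by isotype. Tuba8, an alpha tubulin of muscle, read 4.34, 4.50 and 5.34 at P2 and 7.09, 7.35 and 7.19 at P14, a 5.60-fold rise (log2 2.49, SE 0.23, adjusted p = 7.746e-06). Of 14 isotypes it was the only one that rose, and 6 fell, among them Tubb6 (log2 -1.35) and Tuba1c (-1.08). Tubulin genes are alike in sequence, and their probes may share signal. Of 15 muscle splicing regulators 4 rose and 4 fell: Mbnl1, the regulator of adult splice forms, rose 1.84-fold (log2 0.88) and Mbnl3, its fetal relative, was lower and dim at P14 (log2 -0.997), with 5 called without P2 replicate 1, 3 without P14 replicate 1 and 2 without P14 replicate 2.

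Of the other largest changes, several concern genes in none of these lists. Prr32 read 6.57 at P2 and 3.25 at P14 (log2 -3.32), close to the background level. The kinase gene Nrk, active in embryonic muscle, fell 7.28-fold (log2 -2.86), the angiotensin receptor gene Agtr2, of fetal tissues, 5.92-fold (log2 -2.57), and Tecrl, known from the heart, was lower (log2 -3.16), reading 2.63, 2.77 and 4.39 at P14, so that 2 of the 3 P14 arrays were under the background level. The glutamine transporter gene Slc38a3 read 3.02, 3.84 and 3.75 at P2 and 6.40, 6.56 and 6.63 at P14, a 7.94-fold rise (log2 2.99, SE 0.23). Smco1 rose 7.13-fold (log2 2.83) and the glutathione transferase gene Gstk1 6.50-fold (log2 2.70). In all, 500 of the 2447 called genes were in 1 of the lists and 1947 in none.

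Markers of other cells in the tissue moved in both directions. Of 8 mast cell markers 7 fell and none rose, with a median of -1.52, and 5 of the 7 were called whichever array was left out. Carboxypeptidase A3 (Cpa3), a mast cell granule protease, read 9.03, 8.07 and 8.14 at P2 and 5.89, 5.49 and 5.72 at P14, 6.54-fold lower (log2 -2.71, SE 0.25, adjusted p = 8.743e-06). The granule genes Tpsb2 (log2 -2.001), Cma1 (-1.91) and Mcpt4 (-1.62) fell with it. The summed level of the list was 8.88 to 9.53 at P2 and 6.88 to 7.12 at P14.

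Of 12 neutrophil and granulocyte precursor markers 6 were lower and none higher (median -1.27), but the P2 arrays were far apart, with summed levels of 8.93, 6.84 and 8.05, against 6.41 to 6.58 at P14. The count was 2 without P2 replicate 1 or any 1 of the P14 arrays, 3 without P2 replicate 3 and 10 without P2 replicate 2. Stfa2l1, a stefin of neutrophils, read 7.78, 3.09 and 6.66 at P2 and 1.60, 1.68 and 1.52 at P14, so that P2 replicate 2 alone was near background among the P2 arrays. It was called lower in every fit, with a difference of -3.27 without P2 replicate 1 and of -5.62 without P2 replicate 2. The bone matrix gene Ibsp (8.08, 6.54 and 5.90 at P2, dim at P14) was lower by every fit (log2 -4.44, or -3.82 without P2 replicate 1), as was the cartilage gene Acan, dim at P14, but of 13 cartilage and bone markers 2 were called lower and 1 higher, and 6 without P2 replicate 3. The summed level of that list was 9.09, 9.62 and 7.95 on the P2 arrays and 7.67 to 7.77 at P14.

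Some vessel markers were higher. Of 14 endothelial markers 5 rose and none fell (median 0.65), with the receptor genes Flt1 (log2 1.02) and Ptprb (1.04) called in every fit. The count was 2 without P2 replicate 1 or any 1 of the P14 arrays, 3 without P2 replicate 2 and 8 without P2 replicate 3. Of 12 pericyte and smooth muscle markers 4 rose, and Rgs5, a pericyte gene, read 6.99, 8.16 and 8.41 at P2 and 9.77, 9.80 and 9.93 at P14, 3.95-fold higher (log2 1.98, SE 0.28). The summed level was 9.31 to 9.94 at P2 and 10.04 to 10.22 at P14 for endothelial markers and 10.69 to 11.09 and 11.66 to 11.77 for pericyte markers.

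By limma, 0 of 12 macrophage, 6 MHC class II, 9 lymphocyte and 9 Schwann cell markers were called, with medians of -0.17, 0.28, -0.06 and -0.21. At an unadjusted p under 0.05 there were 2, 2, 0 and 2, and the most called in any alternative fit were 1, 2, 0 and 1. In these lists 12, 5, 3 and 8 members had a mean above the background level at 1 or more ages, so most lymphocyte markers lay under it. Of 9 adipocyte markers 3 fell and 1 rose. Cidec (log2 -1.07) and Adipoq (-0.92) kept their calls, Retn (-1.15) was not called without P2 replicate 1 or 3 or P14 replicate 1 or 2, and 2 of the 9 were called without P2 replicate 1 or 3 or P14 replicate 1. Of 11 tendon markers 2 rose and 1 fell, and Angptl7 rose 3.28-fold (log2 1.71), all after P7. Of 9 epidermis markers 1 was called and of 4 erythroid markers 1, neither in every fit with 1 array left out. Without P2 replicate 2, 3 of the 4 erythroid markers were called lower. Their summed level was 7.14, 5.82 and 7.69 on the P2 arrays and 5.51 to 5.90 at P14. The globin genes written in the erythroid list were not measured. Only 4 of the 9 epidermis markers had a mean above the background level at 1 or more ages. The part of these cells in the changes of muscle genes was not tested.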

How the data were processed

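Affymetrix arrays of hindlimb muscle RNA, 3 at each of P2, P7 and P14, were labelled from 6 ug of total RNA per the labels. The table the authors deposited holds log2 intensities made with RMA and Partek, per the submitters' processing notes, which give no versions; the log base was taken from the RMA method and the range of values (array medians 3.29 to 3.36). No further normalization was applied. Of the probe sets, 25335 were listed with a gene, 1814 of them with several symbols, and 1082 genes had more than 1 probe set. limma 3.58.1 in R 4.3.3 was fitted on all 9 arrays, with the P14 minus P2 contrast, moderated standard errors and Benjamini-Hochberg adjustment over 22180 genes, called at 0.05, after a check on simulated data. Precision is limited by how many arrays each age has.

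The members and the 66 gene lists (849 of 924 symbols measured) were chosen with earlier results of these data known. Named are the 15 largest rises and falls (the 5 largest for small RNA genes), up to 4 called members of each list by adjusted p, gene pairs and a fixed set of genes. Sequences and promoters are RefSeq's, GRCm38.p6. Summed levels of marker lists are the log2 of summed intensities. Alternatives covered the arrays fitted, a replicate block, scaling, spread, array weights, dim genes, probe sets, Xist as a covariate and each array left out. Smell and taste receptor genes set the background level.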

Additional observations from a re-analysis of the deposited data

How the results depend on the processing

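Leaving out 1 of the 9 arrays gave 1373 to 2611 changed genes, 837 to 1667 higher and 535 to 1250 lower, in place of 2447, 1470 and 977; the lower ends came without P2 replicate 1 or 1 of the P14 arrays. The other 10 settings gave 2133 to 2848 changed genes, and those changed by at least 2-fold numbered 747 to 1082 over all settings. The labels do not say that replicate numbers pair the arrays. Deviations from the age means correlated from -0.03 to 0.06 between arrays of 1 number, and an array was closest to its own number in 9 of 18 cases. With 3 arrays at each age this check cannot settle whether the numbers pair the arrays. With the number as a replicate block 2320 genes were called, 2202 of them shared with the 2447. Of 244 named genes called, 190 were called in every fit with 1 array left out, 54 lost the call at least once and none of the 244 reversed under the other settings; cyclic loess lost 17, the fit on 6 arrays 12, the block and robust eBayes 6 each. Genes that were not called changed sign in some fits: Acta1 was -0.10 after cyclic loess, Fabp3 0.13 with the mean of its probe sets, and, with 1 array left out, Cox8a went from -0.20 to 0.038, Ckb from -0.62 to 0.19, Hk1 from -0.30 to 0.10 and Fabp5 from -0.26 to 0.11. Xist was -0.014 after cyclic loess and -0.26 with array weights, and its leave-one-out values went from -1.66 to 2.25. The causes were not tested. Dim genes limit the comparison: 405 called genes had a dimmer age under the background level, 99 of them at both ages.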
